A study of Mus musculus with 6 samples.

Results

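MMERGLN is a family of mouse endogenous retroviruses, and its members here were the rows of the authors' deposited table of repeats named MMERGLN-int or MMERGLN_LTR. They were 385 of 773731 rows: 202 of the internal part and 183 of the long terminal repeat (LTR). Each row is 1 annotated repeat and 1 direction of reads, and the 385 rows stood for 305 loci on 21 chromosomes, 143 internal and 162 LTR. Joined over gaps of up to 1 kb, these loci formed 192 copies. The family was selected on the values of that same table, in which it was mostly lower in Trp53_KO, so the values of its rows are given as a description and with no test.

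Total RNA was sequenced from ID8, an immortalized C57BL/6 mouse line of ovarian surface epithelium, in 3 libraries of genotype Trp53-/- (Trp53_KO) and 3 of genotype Trp53+/+ (Trp53_WT). All were untreated and growing asynchronously. Trp53 encodes the transcription factor p53. Whether replicates were separate cultures, and whether a genotype is 1 clone, is not in the labels, so the spread between libraries may be technical.

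An endogenous retrovirus is a copy of a retrovirus inherited in the host genome. A complete copy has an LTR at each end of an internal part with the genes gag (capsid proteins), pro-pol (enzymes) and env (envelope). The 5′ LTR holds the promoter and the 3′ LTR the end of the RNA, and recombination between them can leave an LTR alone. MMERGLN belongs to the gammaretrovirus-like ERV1 class, and GLN refers to the glutamine tRNA that primes reverse transcription. p53 binds DNA as a tetramer at a pair of adjacent 10-base half-sites, and in humans some ERV1 LTRs are known to carry such sites.

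The sequences that carry the regulatory and coding landmarks are shown first, read 5′ to 3′ on the strand of the element in mm10 (GRCm38). The LTR sequence comes from 4 GENCODE M21 lincRNAs, without a coding sequence, that run into a 3′ LTR, and from Sos2-205, a retained-intron transcript that covers an LTR alone. The LTR of the chromosome 8 copy (chr8:121840835-121841134, plus strand, from Gm42047-202) is given from its first base, with a match to the p53 full-site consensus in capitals.
chromosome 8 LTR: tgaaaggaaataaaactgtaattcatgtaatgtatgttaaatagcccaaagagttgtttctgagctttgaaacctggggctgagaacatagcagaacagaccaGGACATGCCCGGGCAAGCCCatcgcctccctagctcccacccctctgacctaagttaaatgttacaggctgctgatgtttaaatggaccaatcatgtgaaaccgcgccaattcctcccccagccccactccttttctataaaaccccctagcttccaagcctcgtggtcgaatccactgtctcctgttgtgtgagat
The match, 2 half-sites with no spacer, lay at bases 104 to 123, with CCAAT at base 191 and TATAAA at base 240. The 3′ LTR stretches of copies on chromosomes 3, 9 and 10 held the same 20 bases at the same place. No 5′ LTR was read at that place. The 4 stretches of 3′ LTR were at least 97.8% identical over their shared length. A more divergent LTR in an intron of Sos2 on chromosome 12 was 92.1% to 92.7% identical to them and differed in the site by A16G (positions from 1 at the 5′ end of the 20 bases; the chromosome 8 base comes first). Base 16 is in capitals here.
LTR of chromosomes 3, 8, 9 and 10: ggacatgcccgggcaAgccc
LTR in Sos2: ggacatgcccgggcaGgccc
The A16G difference takes the Sos2 stretch out of the consensus. In the authors' deposited table that LTR alone had a log2 fold change of -0.54 (FDR 0.94). It lies on the strand of Sos2, so its sense row may hold reads of that gene. Sos2 itself had -0.32 ± 0.09 (SE, edgeR adjusted p = 0.026). Of all 61 sense rows of LTRs alone, 2 were lower, and their median was -1.06. The 3′ LTR of the chromosome 8 copy had -1.51 (FDR 2e-08) and that of the chromosome 10 copy -1.68 (FDR 0.00099). The part of the site in these values was not tested. The 3′ LTRs of the chromosome 3 copy, with -1.19 (FDR 0.61), and of the chromosome 9 copy, with 0.00 (FDR 1), held the site as well. Neither row was called, though both copies had a lower row. The internal row of the chromosome 3 copy had -1.63 (FDR 3.5e-21). The 5′ LTR of the chromosome 9 copy had -2.91 (FDR 0.063). A match is a stretch of letters, not a measured binding site. Among the 300-base windows from 250 bases before to 50 after the gene starts in RefSeq (GRCm38.p6), 3 of 32851 (0.00913%) held the full site with no spacer and 24 (0.0731%) with a spacer of up to 13 bases. A half-site was in 8.36% of them, TATAAA in 13.6% and CCAAT in 37.4% on either strand (the p53 consensus reads the same on both strands). Of the 3 genes with the full site, Sptbn4, a spectrin, is in the count table, at 6, 6 and 3 counts in Trp53_KO against 1, 7 and 4 in Trp53_WT, too few to be tested.

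Where the 5′ LTR of the chromosome 8 copy meets its internal part (chr8:121833247-121833334, plus strand, Gm42047-201), the first 20 internal bases, the place of a retroviral primer binding site, are in capitals.
LTR end and internal start: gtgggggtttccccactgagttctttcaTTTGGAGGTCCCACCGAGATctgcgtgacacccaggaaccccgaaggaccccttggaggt
The gag region begins further on. A RefSeq gene window inside this copy, Gm42048 (chr8:121833741-121834040, plus strand), holds the ATG, in capitals, that opens the longest reading frame of the first internal exon of Gm42047-201.
start of gag: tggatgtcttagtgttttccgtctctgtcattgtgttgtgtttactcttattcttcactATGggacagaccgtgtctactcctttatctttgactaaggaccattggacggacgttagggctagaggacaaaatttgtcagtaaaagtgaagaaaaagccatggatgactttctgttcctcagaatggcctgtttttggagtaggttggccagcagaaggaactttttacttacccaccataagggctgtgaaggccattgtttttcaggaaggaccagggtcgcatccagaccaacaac
That frame started at base 526 of the internal part and was open for 436 codons, up to the end of the exon. In the last internal exons of 4 lincRNAs, the longest ATG-to-stop frames were 650 codons on chromosomes 9 and 10, 536 on chromosome 3 and 334 on chromosome 8. How nearly alike the copies are is shown by windows of RefSeq genes in the internal part of copies on chromosomes 4 and 6, Gm46854 (chr4:51876397-51876696, plus strand) and Gm46950 (chr6:7724023-7724322, plus strand), which differ by 1 base, in capitals.
Gm46854: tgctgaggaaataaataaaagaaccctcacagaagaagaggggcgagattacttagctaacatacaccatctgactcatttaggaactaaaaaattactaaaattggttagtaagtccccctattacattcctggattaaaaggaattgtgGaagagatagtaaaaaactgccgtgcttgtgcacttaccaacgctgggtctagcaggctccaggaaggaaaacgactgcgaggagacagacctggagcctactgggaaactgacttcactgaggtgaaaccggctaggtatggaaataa
Gm46950: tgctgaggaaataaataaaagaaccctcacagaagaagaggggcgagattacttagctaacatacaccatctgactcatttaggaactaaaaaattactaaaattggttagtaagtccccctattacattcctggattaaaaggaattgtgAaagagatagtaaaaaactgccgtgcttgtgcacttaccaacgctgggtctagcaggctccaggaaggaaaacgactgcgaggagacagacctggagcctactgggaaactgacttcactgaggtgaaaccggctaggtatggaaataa
In all, 5 such windows, on 5 copies, differed from each other by 0 or 1 bases. The last internal exons of the 4 lincRNAs were 98.4% to 99.5% identical, with runs of 286 to 962 identical bases between pairs. A short read from such a run cannot be placed in 1 copy, and the sources used here do not say how the authors placed such reads. The copies are therefore not independent measurements. Lower rows were also listed on chromosome Y, 3 internal rows of 2 copies with log2 fold changes of -2.52 to -1.46 in the authors' deposited table, while the labelled tissue is ovarian.

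Read on the strand of the element, MMERGLN rows on 20 chromosomes were lower in Trp53_KO. Since near-identical copies share reads, how many copies gave the RNA is not known. In the authors' deposited table, 84 of the 385 rows (21.8%) were lower at an FDR under 0.05, where 0.284% of all repeat rows were lower. In bulk RNA, fewer cells with the RNA and less RNA per cell cannot be told apart. One row was higher, against 0.388% of all rows. The 84 rows were 59 internal and 25 LTR rows, lay on 20 chromosomes and belonged to 56 copies. They made up 3.83% of all lower rows, while the family holds 0.0498% of the rows of the table. Because the rule rests on these values, nothing is read from these shares.

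**Figure D1:**
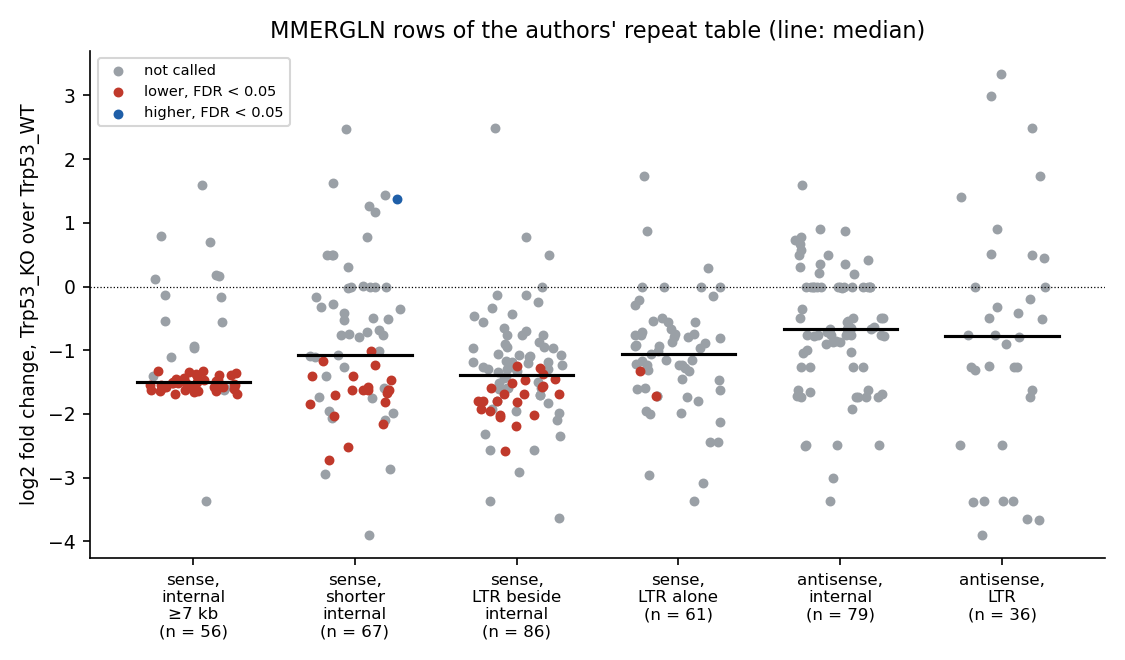
Each point is 1 MMERGLN row of the authors' deposited table, by part and read direction, with its log2 fold change (Trp53_KO over Trp53_WT) on the vertical axis; black lines are medians. The called rows are all among the 270 sense rows, and the 39 called internal rows of at least 7 kb lie between -1.68 and -1.33.

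All 84 lower rows were of reads in the sense of the element, which were 270 of the 385 rows. None of the 115 antisense rows was called. The median log2 fold change was -1.33 over the sense rows and -0.66 over the antisense rows, against 0.00 over all repeat rows. The table gives no depth per row, so how far depth sets which rows were called is not known. All 84 lower rows had a log2 fold change below -1, and they ranged from -2.72 to -1.01.

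The 56 sense internal rows of at least 7 kb had log2 fold changes of -3.36 to 1.60, with a median of -1.50 and quartiles of -1.58 and -1.33. Of these, 39 were lower, and those 39, picked by their call, lay between -1.68 and -1.33. Their lengths were 7454 to 7588 bases, with a median of 7555. The row with the lowest FDR was on chromosome 10 (25896041 to 25903595, -1.66 in the authors' deposited table, FDR 2.3e-38), in the noncoding gene RP23-356G7.6. Next came an intergenic row on chromosome 2 (94801494 to 94809047, -1.61 in the authors' deposited table, FDR 1.6e-36). A shorter row on chromosome 10 (17318563 to 17324233, -1.67, FDR 5e-28) in RP23-281M13.2 followed. Intergenic rows on chromosomes 6 (58817673 to 58825229), 4 (39385533 to 39390651) and 16 (55955255 to 55962813) had -1.55, -1.63 and -1.53 in the authors' deposited table. The row in an intron of Adgrl3 on chromosome 5 (81626059 to 81633612) had -1.64 there (FDR 3e-19). These rows were taken for their low FDR, and the part of reads shared between near-identical copies in their values was not tested.

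The other 17 long sense rows were not called. Of these, 11 lay in the first 20 Mb of chromosome 14, with row lengths of 7316 to 7359 bases, shorter than any of the 39 lower rows. Their log2 fold changes ran from -1.11 to 1.60 with a median of -0.16. Outside that stretch, 39 of 45 long rows were lower. Of the other 6, 4 were below 0, at -3.36, -1.62, -1.60 and -1.41 in the authors' deposited table, with FDRs of 0.063 to 0.79. The remaining 2 had 0.16 and 0.18 there. The row with 0.18, on chromosome 4 (11176470 to 11183871, FDR 0.81), lay 2091 bases from Trp53inp1, a p53 target gene. Trp53inp1 RNA itself was at 19.5 ± 1.7 CPM in Trp53_KO and 65.8 ± 2.7 CPM in Trp53_WT (SD, n = 3 each), and fell by 1.76 ± 0.09 on the log2 scale (SE; edgeR, Benjamini-Hochberg adjusted p = 4.7e-07). CPM values are scaled by TMM.

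**Figure D2:**
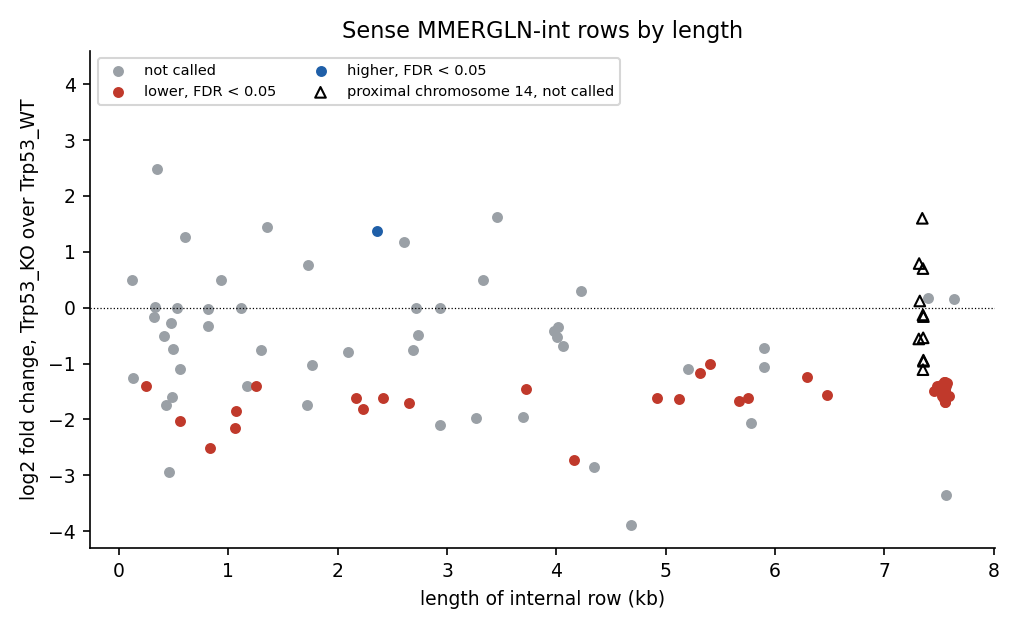
Each point is 1 sense MMERGLN-int row, with its length in kb on the horizontal axis and its log2 fold change (Trp53_KO over Trp53_WT) on the vertical axis. The 39 lower rows of 7454 to 7588 bases lie between -1.68 and -1.33, and the 11 rows of proximal chromosome 14, as open triangles, spread from -1.11 to 1.60.

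The parts listed for a copy went along with the calls. Of the 39 copies with internal rows and an LTR at both ends, 38 had a lower row, and of the 11 with 1 LTR, 10 did. Internal rows with no LTR beside them formed 70 copies, of which 6 had a lower row and 1 a higher one. Of 72 copies of LTR rows alone, 2 had a lower row, where 61 LTR rows of this kind were read in sense. They were on chromosome 7 (72749383 to 72749812, -1.72 in the authors' deposited table) and chromosome 16 (76642634 to 76643058, -1.33 there). The chromosome 16 LTR ends 1 base before a lower copy on the other strand, so it stands alone only on its own strand. In 17 copies both an internal and an LTR row were lower, in 37 internal rows alone and in 2 an LTR row alone. Copies were built from the listed rows alone, so an LTR that is not listed is missing from its copy. Some of the 70 copies without an LTR had long internal parts, such as 7570 bases on chromosome 4 and 7559 on chromosome X. The classes thus follow which rows were listed, not structure alone. Complete copies also give more and longer rows, and the part of length and of listing in this count was not tested.

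Rows lay close to the FDR threshold on both sides. Just inside it were LTR rows on chromosome 1 (58640765, -1.82 in the authors' deposited table, FDR 0.03) and chromosome 6 (7727061, -1.37, FDR 0.033) and an internal row on chromosome 4 (3356146, -1.34, FDR 0.037). Just outside were LTR rows on chromosome 4 (34349146, -1.06 in the authors' deposited table, FDR 0.055), chromosome 2 (20389105, -1.59, FDR 0.062) and chromosome 9 (25863215, -2.91, FDR 0.063).

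The single higher row was on chromosome 2 (156831133 to 156833492), an incomplete internal row with no LTR beside it, with 1.38 in the authors' deposited table (FDR 7e-04). The other 2 rows of this copy had 1.44 (FDR 0.099) and 1.63 (FDR 0.73). The nearby gene Tgif2, a homeodomain repressor 6515 bases away, rose by 1.23 ± 0.09 on the log2 scale (SE; edgeR, adjusted p = 6.8e-06).

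Families taken for comparison had other values in the authors' deposited table. MMVL30-int, the internal part of another ERV1 family, had 152 of 501 rows higher (30.3%) and 4 lower. RLTR4_MM-int, a murine leukaemia virus relative, had 5 of 206 rows higher and 1 lower, and its LTR, RLTR4_Mm, 4 of 234 higher and 0 lower. IAPEz-int, of the intracisternal A particles, had 9 of 5527 rows higher and 4 lower. Among 957 subfamilies with at least 20 rows, MMERGLN-int and MMERGLN_LTR had the highest shares of lower rows, 29.2% and 13.7%, and LSU-rRNA_Hsa came next with 10.3%. The differences between families were not tested, since MMERGLN was chosen for this contrast.

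**Figure D3:**
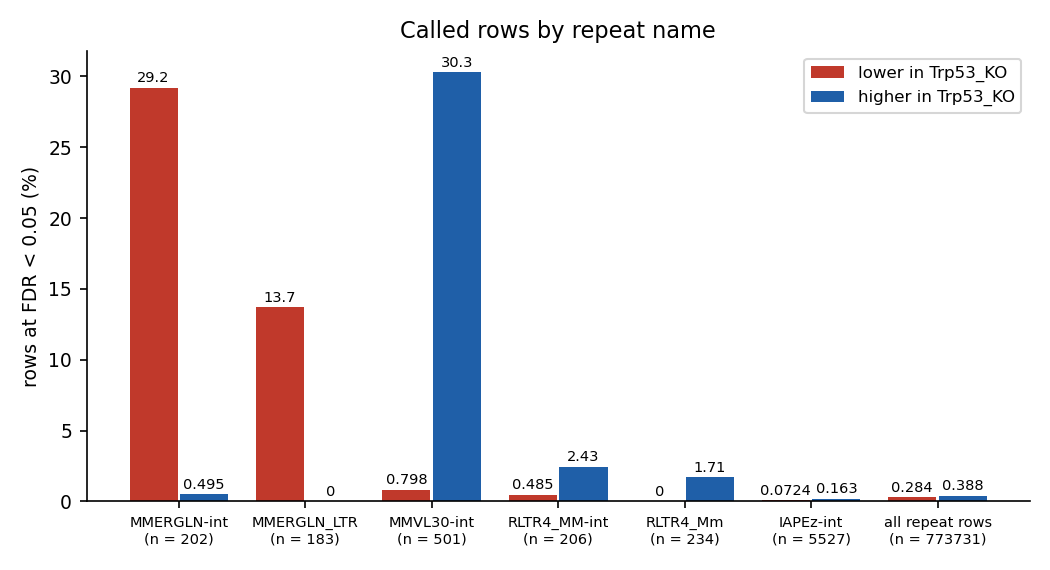
Bars give the percentage of rows lower (red, left) and higher (blue, right) in Trp53_KO at an FDR under 0.05 in the authors' deposited table, by repeat name. Lower rows reach 29.2% in MMERGLN-int and 13.7% in MMERGLN_LTR, and higher rows 30.3% in MMVL30-int.

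Values per library exist where the count table has a gene on a copy. The authors' annotation placed 10 noncoding genes, named after genomic clones, on MMERGLN rows as an untranslated region, and 7 had enough counts to be tested. They count many of the same reads as the repeat rows, so they show the spread between libraries and are not independent evidence. RP24-286J21.7, on the chromosome 8 copy, had by far the most counts. It had 3151, 3057 and 3086 counts in Trp53_KO replicates 1 to 3, against 6791, 9684 and 8244 in Trp53_WT. That is 170 ± 12.9 CPM in Trp53_KO and 460 ± 18.5 CPM in Trp53_WT (SD, n = 3 each), with no overlap. The log2 fold change was -1.44 ± 0.07 (SE). This gene held 89.2% to 89.5% of the counts of the 6 lower noncoding genes in Trp53_KO and 86.9% to 87.8% in Trp53_WT. These are raw counts, not scaled by gene length, and how reads shared between copies were counted is not known.

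The other 5 were 3.05-fold to 3.55-fold lower at much smaller counts. RP23-281M13.2 on chromosome 10 had 122, 117 and 118 counts in Trp53_KO, against 400, 424 and 404 in Trp53_WT, a log2 fold change of -1.83 ± 0.13 (SE). WI1-49P9.2 on chromosome 3 had 96, 100 and 106 counts in Trp53_KO, against 235, 375 and 299 in Trp53_WT. RP23-356G7.6, at the row with the lowest FDR, had 75, 78 and 95 counts in Trp53_KO, against 216, 306 and 242 in Trp53_WT. In each of these genes every Trp53_KO library was below every Trp53_WT library. RP23-212C9.3 on chromosome 9 had 41, 37 and 31 counts in Trp53_KO, against 93, 135 and 118 in Trp53_WT. RP23-7A5.1 on chromosome 12 had 35, 28 and 25 counts in Trp53_KO, against 81, 105 and 93 in Trp53_WT. The log2 fold changes of these 4 genes were between -1.70 and -1.61, with SEs of 0.12 to 0.16. RP24-482A24.3, on the chromosome 2 copy, had 29, 24 and 30 counts in Trp53_KO, against 7, 10 and 13 in Trp53_WT, a log2 fold change of 1.42 ± 0.25 (SE). The sign thus matched that of the repeat row in all 7 genes, as it must where reads are shared.

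**Figure D4:**
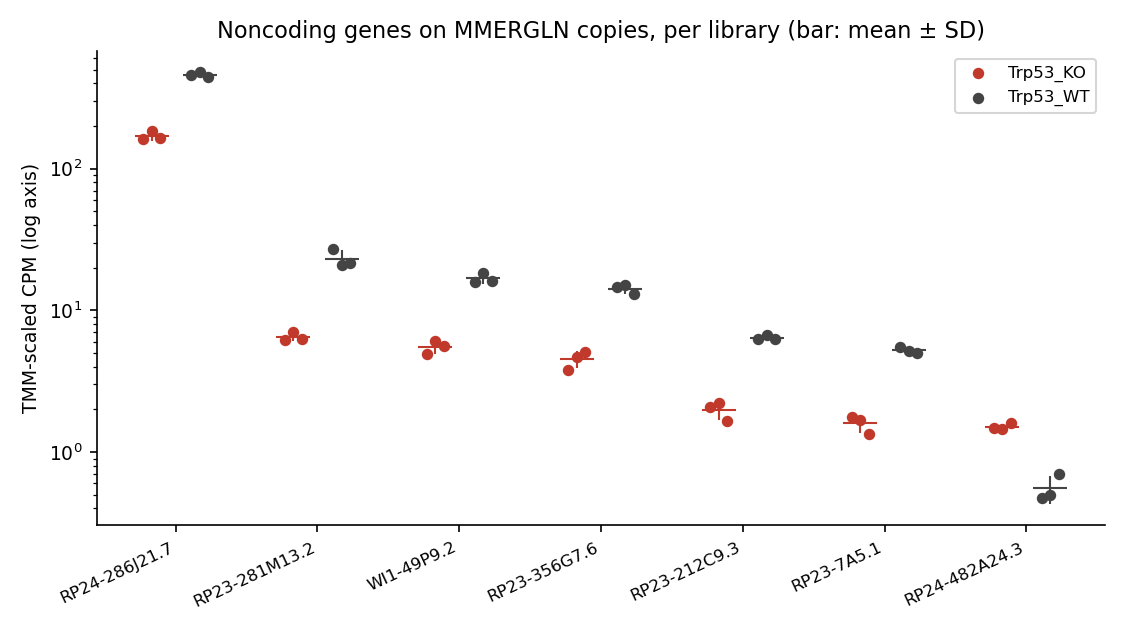
Points are TMM-scaled CPM of each library (log axis) for the 7 noncoding genes, Trp53_KO in red on the left and Trp53_WT in grey on the right; bars are mean ± SD, n = 3. RP24-286J21.7 stands at 161 to 185 CPM in Trp53_KO and 442 to 479 CPM in Trp53_WT, and RP24-482A24.3 alone is higher in Trp53_KO.

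The chromosome 8 copy (121832845 to 121841264, plus strand) is complete. In the authors' deposited table its 5′ LTR had -1.68 (FDR 1.7e-11), its internal part -1.43 (FDR 2.8e-13) and its 3′ LTR -1.51 (FDR 2e-08). The decrease went on beyond its end. Of 21 other repeat rows read on the strand of the copy within 10 kb downstream, 20 were below 0 and 7 were lower, with log2 fold changes of -2.13 to -1.81. The first was a B3 element 160 bases after the copy (-1.81 in the authors' deposited table, FDR 5.3e-06), and the last of the 7 an MTC element 4928 bases after it (-1.84, FDR 0.012). Between 10 and 30 kb downstream 0 of 7 such rows were lower, with values of 0.00 to 3.90 and FDRs of at least 0.22. The depth of these rows is not known, so they do not show where the decrease ends. Within 30 kb upstream no row was read on this strand, and none of 43 on the other strand was lower.

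**Figure D5:**
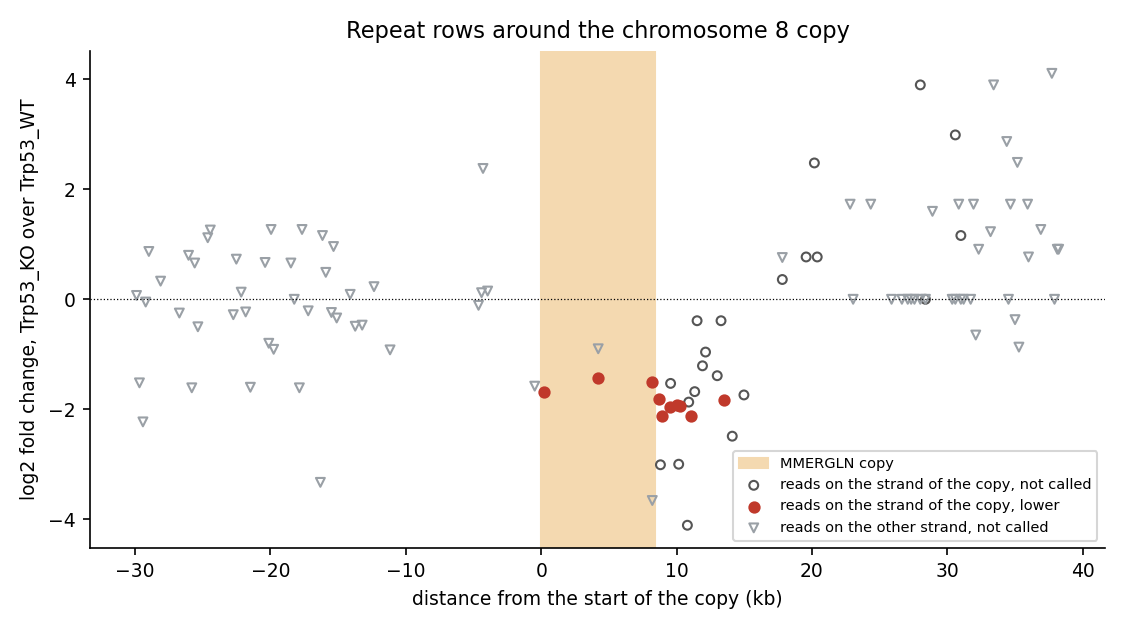
Each point is 1 repeat row of the authors' deposited table, with its distance in kb from the start of the chromosome 8 copy (shaded) and its log2 fold change; circles are reads on the strand of the copy, triangles reads on the other strand, and red rows are lower at an FDR under 0.05. The red rows cover the copy and continue downstream on its strand, down to -2.13.

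No such stretch was listed at the other copies, but few could show one. Of the copies with a lower internal row, only 27 had any row of another repeat within 10 kb. These were 230 rows, and the 7 lower ones were all at the chromosome 8 copy. Downstream in sense, the copies other than that of chromosome 8 had 83 rows, with a median log2 fold change of 0.00. The remaining copies had no row there, and the depth of the rows is not known. The gene upstream of it, Klhdc4, a kelch-domain protein 3276 bases away and read on the other strand, had a log2 fold change of -0.13 ± 0.10 (SE; edgeR, adjusted p = 0.37), though -0.23 (adjusted p = 0.015) without Trp53_WT replicate 1.

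Genes around the copies were examined next, from GENCODE M21 and the authors' annotation. Of 80 tested genes within 10 kb of any MMERGLN row, 20 fell and 9 rose at an edgeR adjusted p under 0.05, together 36.2%, where 30.3% of all 13651 tested genes were called. Their median log2 fold change was -0.09, against -0.02 over all genes. The 80 include the 7 noncoding genes on the copies, of which 6 fell and 1 rose. Neither the share nor the median is thus one of neighbours alone. Of the 23 near a called row, 10 fell and 4 rose. Those 14 include the 7 noncoding genes on the copies, so the count is not one of neighbours alone. The others that fell were Adgrl3, Als2cr12, Immp2l and Zfp738 (-0.29 ± 0.09, SE, edgeR adjusted p = 0.033). The others that rose were Arhgap18, Tgif2 and Hsp90b1 (0.24 ± 0.06, SE, edgeR adjusted p = 0.02). The calls of Zfp738 and Hsp90b1 were lost under some alternatives.

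Adgrl3, an adhesion G protein-coupled receptor that binds FLRT proteins, holds a complete copy in an intron, on the opposite strand. It had 198, 128 and 182 counts in Trp53_KO, against 501, 591 and 534 in Trp53_WT, with no overlap. Its log2 fold change was -1.73 ± 0.12 (SE; edgeR, adjusted p = 4.1e-06), and both LTRs of the copy were lower in the authors' deposited table, with -2.58 and -1.92. Libraries were made with a stranded kit, but the sources used here do not say whether the gene counts used strand, so reads of the gene and of the copy may not be apart. Als2cr12, with a copy on the opposite strand at its intron, had 10, 6 and 8 counts in Trp53_KO, against 19, 26 and 17 in Trp53_WT, and fell with -1.39 ± 0.29 (SE; edgeR, adjusted p = 0.0057). Immp2l, which encodes a mitochondrial inner membrane peptidase subunit, had 21, 21 and 24 counts in Trp53_KO, against 26, 44 and 36 in Trp53_WT (-0.71 ± 0.20, SE; edgeR, adjusted p = 0.024). That call was lost when any 1 of 5 libraries was left out, and in DESeq2 (adjusted p = 0.15).

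Genes near lower copies did not all fall. Arhgap18, a RhoA GTPase-activating protein 8754 bases from an internal row that was lower (-1.35 in the authors' deposited table, FDR 5.2e-08), was at 95.4 ± 4.54 CPM in Trp53_KO and 38.2 ± 1.83 CPM in Trp53_WT (SD, n = 3 each). It rose by 1.32 ± 0.08 on the log2 scale (SE; edgeR, adjusted p = 1.1e-06). Btbd3, the intron of which holds a lower copy on the same strand, had -0.25 ± 0.08 (SE; edgeR, adjusted p = 0.052), and Etl4, with a lower copy on the opposite strand, -0.24 ± 0.15 (adjusted p = 0.24).

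Host genes known to act on gammaretroviruses were taken as 75 genes in 5 lists, of which 73 were tested. Of these, 14 rose and 9 fell (31.5%), with a median log2 fold change of 0.01, which is near the 30.3% of all genes. The 23 calls became 14 without Trp53_KO replicate 1 and 15 without Trp53_WT replicate 2. The silencing list, of factors that place or read repressive marks on retroviral DNA, had 9 of 27 higher and 3 lower, with a median of 0.12, where 14.1% of all tested genes were higher and 16.1% lower. Dnmt3a, a DNA methyltransferase (0.45 ± 0.09, SE; edgeR, adjusted p = 0.0031), and Daxx, a histone H3.3 chaperone (0.43 ± 0.09; adjusted p = 0.0069), rose. Trim28, the corepressor of KRAB zinc finger proteins, rose by 0.24 ± 0.06 (adjusted p = 0.018), and Suv39h1, a histone H3 lysine 9 methyltransferase, fell by 0.43 ± 0.07 (adjusted p = 0.0018). Zfp809, the zinc finger protein that binds the proline tRNA primer site of murine leukaemia virus, had 34.2 ± 2.69 CPM in Trp53_KO and 31.5 ± 2.31 CPM in Trp53_WT, with overlapping groups (0.12 ± 0.09; edgeR, adjusted p = 0.35). Setdb1, the methyltransferase recruited by Trim28, had 0.01 ± 0.06 (adjusted p = 0.94).

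Among 10 restriction factors, 3 fell and 2 rose. The shares called over all genes, 30.3% in either direction, 14.1% higher and 16.1% lower, are the measure for this small list and for the next 3. Ifitm3, an interferon-induced membrane protein that hinders viral fusion, was at 10.6 ± 1.16 CPM in Trp53_KO and 47.0 ± 5.91 CPM in Trp53_WT (SD, n = 3 each), and fell by 2.14 ± 0.12 on the log2 scale (SE; edgeR, adjusted p = 9.7e-07). Bst2, the tetherin that holds virions on the cell surface, fell with -1.82 ± 0.09 (adjusted p = 6.3e-07), and Serinc3 and Serinc5, which are built into virions and lower infectivity, rose by 0.98 ± 0.06 and 0.75 ± 0.06 (adjusted p = 1.2e-06 and 1.9e-05). Among 17 replication cofactors 2 rose and 1 fell: Wwp2, a ubiquitin ligase that binds budding motifs, had 66.3 ± 3.25 CPM in Trp53_KO and 153 ± 6.82 CPM in Trp53_WT (-1.21 ± 0.07, SE; edgeR, adjusted p = 1.2e-06). Of 13 tested factors known to bind gammaretroviral LTR enhancers 1 rose and 1 fell. Ets2, an ETS-domain activator, fell with -0.96 ± 0.06 (SE; edgeR, adjusted p = 2.9e-06). Of the 6 entry receptors 1 was called, Slc1a5, a neutral amino acid transporter (-0.22 ± 0.06; adjusted p = 0.027), and it passed neither in DESeq2 (adjusted p = 0.057) nor when any 1 of 5 libraries was left out.

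Total gene counts were 15319956 to 19954170 per library. Trp53 RNA was at 26.8 ± 2.44 CPM in Trp53_KO and 104 ± 6.41 CPM in Trp53_WT (SD, n = 3 each; edgeR, adjusted p = 2.7e-07), in the direction of the labels. Trp53_WT replicate 1 stood apart, with a chi-square per degree of freedom of 26.9 and 27.5 against its replicates, where other pairs had 2.01 to 8.81; without it the 7 noncoding genes kept their direction and call. All 7 epithelial and mesothelial markers were detected, but they moved with the genotype. Upk3b, at 531 ± 51.9 CPM in Trp53_KO and 73.7 ± 5.02 CPM in Trp53_WT (SD, n = 3 each), rose, as did Wt1 and Krt7, by 0.82 and 0.81 on the log2 scale. Krt8, Krt19 and Msln fell by 0.31, 0.30 and 0.26, and Krt18 had -0.08 (edgeR, adjusted p = 0.34). The leukocyte markers Cd3e and Itgam had 0 counts, and Ptprc had 1, 0 and 0 counts in Trp53_KO, against 2, 6 and 1 in Trp53_WT. The 2 fibroblast markers moved with the genotype, Dcn at 235 ± 10.9 CPM in Trp53_KO and 102 ± 4.18 CPM in Trp53_WT and Pdgfra at 2.16 ± 0.674 CPM in Trp53_KO and 0.799 ± 0.0977 CPM in Trp53_WT (SD, n = 3 each). Pecam1, an endothelial marker, had 31 to 39 counts in Trp53_KO and 2 to 3 in Trp53_WT, while Cdh5, another, had 0. Their part in the fall of MMERGLN was not tested.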

How the data were processed

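The submitters' processing notes name STAR, featureCounts, edgeR and mm10. The sources used here give neither versions and settings nor the annotation or the handling of reads with several alignments. For 41327 gene symbols in 6 libraries the authors deposited raw whole-number counts. In the deposited repeat tables the authors give, per locus and read direction, a log2 fold change of Trp53_KO over Trp53_WT and its FDR (an adjusted p-value), with no values per library and no stated log base. The base was taken as 2: over 795 rows in exons or untranslated regions of called genes the median ratio to the gene's own log2 fold change was 1.03, where natural logarithms would give 0.693. The suffix of a row was taken as the direction of its reads, since it had the gene's strand in 88% of 38905 exonic rows.

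The 13651 genes that passed filterByExpr were fitted with edgeR 4.0.16 (TMM, quasi-likelihood, genotype as the only term; R 4.3.3), adjusted by Benjamini-Hochberg, with a threshold of 0.05. Standard errors are approximate, from the F statistic. The fit was tested on simulated data. Sequences came from GENCODE M21 and RefSeq, aligned with Biopython 1.88. The genes named were Trp53 and genes at or within 10 kb of called rows. For each list up to 4 genes by adjusted p were named too. Not all of these are printed. Zfp809, Setdb1, Trim28, Trp53inp1, Sos2 and the genes with a p53 site were added after their values were seen. The members and lists were chosen with earlier results of these data known. Alternatives were other scalings, filters, tools, distances and FDR thresholds, the replicate number as a block and each library left out.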

Additional observations from a re-analysis of the deposited data

How the results depend on the processing

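The count of 84 lower rows was 56 to 89 under other FDR thresholds, outside annotated genes, with copies joined and with sense or internal rows alone, and 25 with LTR rows only. The 1 higher row became 2 at an FDR under 0.1 and 0 outside annotated genes or with LTR rows only. Genes called within 10 kb of any row, 29 as reported, were 17 with overlap only and 59 within 50 kb, where more genes are tested. With 1 library left out, calls ranged from 2977 to 4984 over all genes, 21 to 36 within 10 kb of any row, 11 to 16 within 10 kb of a called row and 14 to 33 among the 75 host genes, which had 14 without Trp53_KO replicate 1 and 15 without Trp53_WT replicate 2. The replicate numbers did not pair the libraries (correlations of same-numbered deviations -0.053, 0.077 and -0.122), and with the replicate block 3806 genes were called over all, 26 and 12 near any and near called rows, and 21 among the host genes. Of 571 values of 44 named genes under alternatives, 536 kept the call, 29 lost it, 6 gained it and 0 changed sign with a call. The 7 noncoding genes on copies stayed called in all, with RP24-286J21.7 between -1.50 and -1.39 on the log2 scale. Repeat rows have no values per library, so no library could be left out there, and their depth is unknown.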
